A study of Homo sapiens with 4 samples.

Results

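The 10 genes described here encode the inducible transcription factors of the AP-1, EGR and MYC families: FOS, FOSB, FOSL1 and FOSL2, JUN, JUNB and JUND, the CREB/ATF factor ATF3, the zinc finger factor EGR1, and MYC. They were chosen by name, as the genes of the deposited count table with these symbols, and all 10 of them were found among its 36359 genes. The table comes from RNA-seq of ACHN cells, an established line of human renal cell carcinoma grown in serum. One group of cultures was transfected with a negative control siRNA (siNC) and the other with siRNA against PRR11 (siPRR11), each by lipofection and each with 2 libraries. The labels name no other treatment, and they give neither the siPRR11 duplex used for each library nor whether the libraries of a group came from separate cultures, so that a p-value here measures the spread between these libraries, which may be technical.

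FOS and JUN proteins pair through leucine zippers to form AP-1, a factor that binds the sequence TGAGTCA in promoters and enhancers. FOS-family proteins need a JUN partner to bind DNA well, whereas JUN-family proteins can also pair with each other or with ATF proteins, which shifts binding toward the cyclic AMP response element TGACGTCA. FOS, FOSB, EGR1, JUN, JUNB and ATF3 are immediate early genes, which cells transcribe within minutes of a growth factor, serum or stress signal without new protein synthesis, and whose short-lived mRNAs then disappear again. FOSL1, FOSL2 and JUND are transcribed later or more steadily. MYC pairs with MAX and binds E-boxes at genes of ribosome production, metabolism and cell growth, and its protein is removed through FBXW7 after phosphorylation by GSK3.

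PRR11 itself, the siRNA target, fell to 35.9% of its siNC level, from 41.3 and 40.4 CPM (counts scaled to the size of the library) in the siNC libraries to 15.3 and 14.0 in the siPRR11 libraries (log2 fold change -1.48, SE 0.09, adjusted p = 3.35e-06 by edgeR's quasi-likelihood test). Libraries held between 59003839 and 92612749 counted reads, so the spread between libraries rather than counting error set the precision for most genes. CPM values are scaled by edgeR's TMM factors, and adjusted p-values are Benjamini-Hochberg values over the 21630 genes with enough reads to be tested, with 0.05 as the threshold. As a check of the label, the renal epithelial regulators PAX8 and PAX2 stood at 34.6 to 49.8 and 2.96 to 3.71 RPKM (reads scaled by library size and by exonic length), whereas 5 leukocyte markers summed to at most 0.949 RPKM and 5 endothelial markers to at most 0.147 RPKM in a library. The 5 stromal markers summed to 6.25 to 7.53 RPKM, nearly all of it ACTA2 (6.16 to 7.4 RPKM), and 0 of the 3 tested were called. The endothelial marker TIE1 was called higher in siPRR11 (log2 fold change 2.33, edgeR adjusted p = 0.0191) at levels of 0.00253 to 0.0975 RPKM. Of 8 renal epithelial markers tested of 9, 3 were called lower and 1 higher in siPRR11, and the 9 summed to 540 and 645 RPKM in siNC and to 525 and 556 RPKM in siPRR11, with CDH6 near 0. The part of these markers in the results was not tested.

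After PRR11 silencing, 3 of the 10 factors fell, namely MYC, FOSL1 and ATF3, and none of them rose. Of all genes tested, 16.7% passed the threshold, 9.14% as lower and 7.61% as higher in siPRR11 cells. At an unadjusted p under 0.05, 5 factors were lower and 0 were higher, against 15.9% and 14.4% of all genes tested, and DESeq2 and limma also called 0 of them higher. The log2 fold change was negative for 9 of the 10, with a median of -0.25 against 0.0022 over all genes tested. The siPRR11 libraries lay below both siNC libraries for 4 factors (MYC, FOSL1, ATF3 and JUND), and above them for 0. Among all genes tested, 29.3% had non-overlapping groups with siPRR11 lower and 29.1% with siPRR11 higher. The counts of called factors moved with the libraries used, to 6 without siNC replicate 1 (3 of them higher), 8 without siNC replicate 2 (all lower), 6 without siPRR11 replicate 1 (all lower) and 3 without siPRR11 replicate 2 (1 of them higher). RNA was taken from whole cultures, so fewer cells with a transcript and less of the transcript per cell cannot be told apart.

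**Figure D1:**
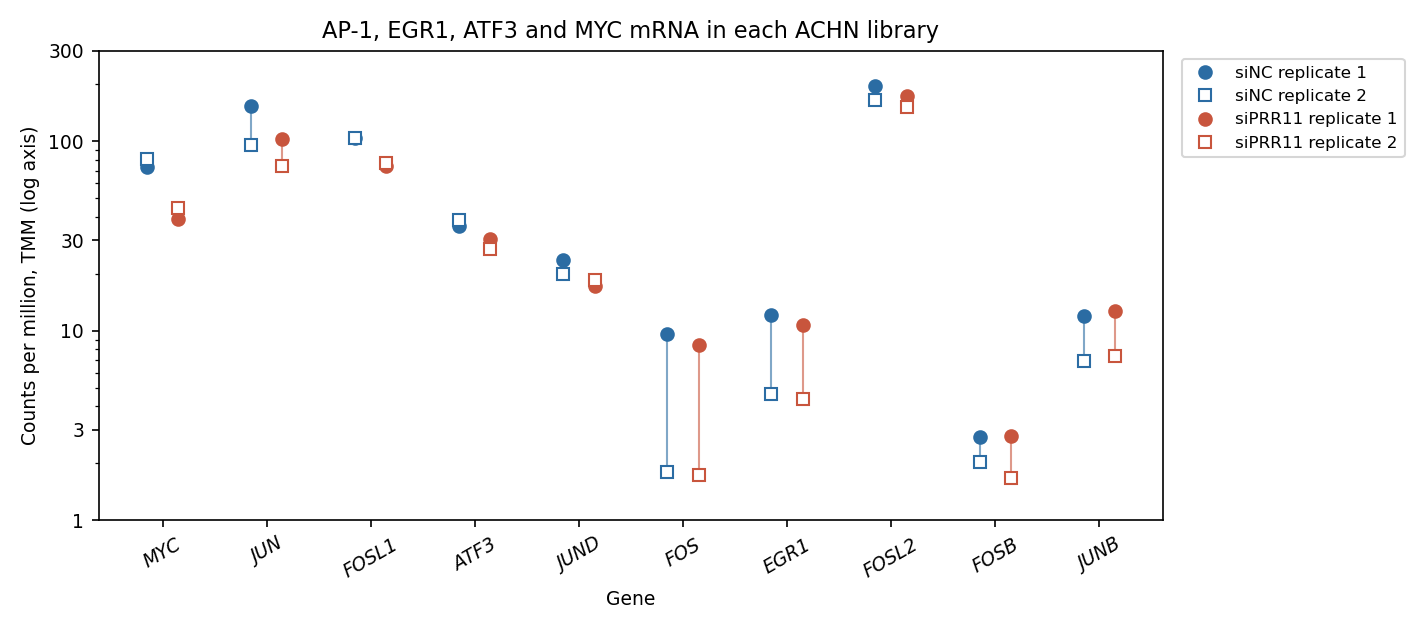
Level of each factor in each library, in TMM-scaled CPM on a log axis; filled circles are replicate 1 and open squares replicate 2, blue for siNC and red for siPRR11, with a line joining the libraries of a group. The siPRR11 points of MYC (39.0 and 44.5 CPM) lie clear of the siNC points (73.5 and 81.0 CPM), whereas FOS differs far more between replicates (9.62 and 1.79 CPM in siNC) than between groups.

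Levels per exonic length, as the mean RPKM of the siNC libraries, ordered the factors as FOSL1, JUN, MYC, FOSL2, JUND, ATF3, JUNB, EGR1, FOS and FOSB. FOSL1 stood at 54.5 ± 0.0731 RPKM (SD, n = 2), JUN at 34.7 ± 11.5, MYC at 25.3 ± 1.73 and FOSL2 at 24.8 ± 2.86 RPKM. JUND followed at 11.5 ± 1.47 RPKM, ATF3 at 8.98 ± 0.437, JUNB at 5.14 ± 1.94, EGR1 at 2.64 ± 1.67, FOS at 1.73 ± 1.68 and FOSB at 0.424 ± 0.0903 RPKM. MYC and FOSL2, JUNB and EGR1, and EGR1 and FOS were neighbours whose siNC libraries overlapped. The immediate early genes EGR1, FOS and FOSB held the lowest places, whereas JUN, also an immediate early gene, was next to the top.

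In siPRR11 cells the order changed in its middle. MYC, at 14.1 ± 1.27 RPKM (SD, n = 2), came below FOSL2, at 23.1 ± 2.1 RPKM, with no overlap between their libraries. FOSL1 remained the most abundant at 40.5 ± 0.924 RPKM, ahead of JUN at 25.4 ± 5.85 RPKM. The FOS family summed to 84.7 and 78.1 RPKM in siNC and to 67.6 and 63.6 RPKM in siPRR11, so both siPRR11 libraries were below both siNC libraries. FOSL1 made up 64.4% and 69.7% of that sum in siNC and 59.0% and 64.7% in siPRR11, which overlap, and FOS made up at most 3.9% in any library. The JUN family summed to 61.9 and 40.9 RPKM in siNC and to 46.1 and 35.5 RPKM in siPRR11, which overlap, and JUN contributed 60.1% to 69.2% of it.

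MYC fell the most. The gene has 3 merged exons on the plus strand of chromosome 8 in the annotation of the deposited table (GRCh38). Its level was 73.5 and 81.0 CPM in the siNC libraries and 39.0 and 44.5 CPM in the siPRR11 libraries, so each siPRR11 library was below each siNC library. The siPRR11 mean was 54.0% of the siNC mean (log2 fold change -0.89, SE 0.09, 95% interval -1.08 to -0.69, edgeR adjusted p = 9.23e-05). Within each group the libraries differed less than the groups did, with replicate 1 at 0.907 of replicate 2 in siNC and at 0.878 in siPRR11. The call was kept when any library was left out, with a log2 fold change between -0.98 and -0.79.

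FOSL1, which encodes the FOS-family protein FRA1, lies on the minus strand of chromosome 11 between 65892049 and 65900573, in 4 exons. It stood at 104.6 CPM in both siNC libraries and at 73.9 and 76.6 CPM in the siPRR11 libraries. Replicates were tight and the groups lay apart: the siPRR11 mean was 71.9% of the siNC mean (log2 fold change -0.48, SE 0.07, 95% interval -0.64 to -0.32, edgeR adjusted p = 0.00125). Leaving out a library kept the call and gave log2 fold changes of -0.50 to -0.45.

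ATF3, a stress-inducible factor that can repress or activate cyclic AMP response elements, lies on the plus strand of chromosome 1 between 212565334 and 212620777, in 5 exons. It was 35.6 and 38.2 CPM in siNC and 30.4 and 27.0 CPM in siPRR11, without overlap. The siPRR11 mean was 77.8% of the siNC mean (log2 fold change -0.36, SE 0.09, 95% interval -0.56 to -0.16, edgeR adjusted p = 0.0194). This call was less firm than the other falls. Without siPRR11 replicate 2 the log2 fold change was -0.28 with an adjusted p of 0.236, and limma on the log2 of RPKM plus 1 gave an adjusted p of 0.0952.

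**Figure D2:**
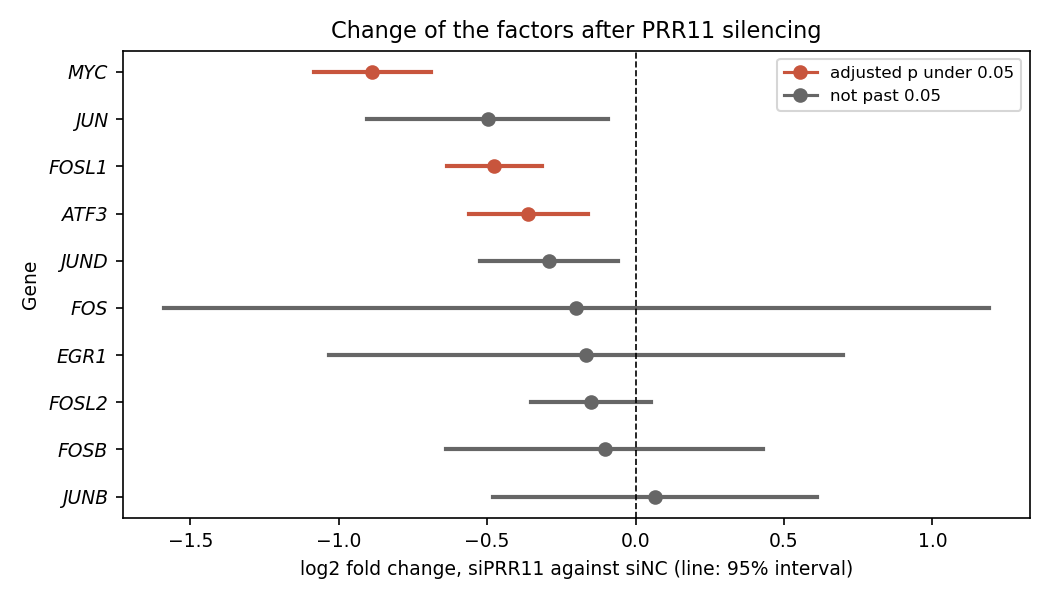
Log2 fold change of each factor in siPRR11 against siNC from the edgeR fit, with bars for its 95% interval. Red points have an adjusted p under 0.05 and grey points do not. MYC, FOSL1 and ATF3 are the red points, all below 0, and the interval of FOS, from -1.59 to 1.19, is the widest.

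No JUN-family gene passed the threshold in the edgeR fit with condition as its only term. With replicate number as a further term JUN and JUND were called lower, although the labels do not say what that number marks. JUN, a single-exon gene on the minus strand of chromosome 1 between 58780788 and 58784327, was 154.2 and 95.9 CPM in siNC and 102.9 and 74.3 CPM in siPRR11, so that siPRR11 replicate 1 exceeded siNC replicate 2. Its log2 fold change was -0.50 (SE 0.19, 95% interval -0.90 to -0.09, edgeR adjusted p = 0.0903). That value depended on the libraries, as it was -0.12 without siNC replicate 1 and -0.28 without siPRR11 replicate 2. It was -0.80 without siNC replicate 2 and -0.75 without siPRR11 replicate 1. JUN was higher in replicate 1 of both groups, so leaving out a library also unbalanced the replicate numbers. Within replicate 1 the siPRR11 level of JUN was 0.667 times that of siNC, and within replicate 2 it was 0.775 times. With no filter on low counts edgeR called JUN lower (adjusted p = 1.21e-07), and DESeq2 did not (adjusted p = 0.447). These fits used the same JUN reads as the main fit, but the fit with no filter took in 34506 genes instead of 21630. Why their p-values for JUN lie so far apart was not tested.

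JUND, the steadily expressed JUN protein, occupies a single exon on the minus strand of chromosome 19 between 18279760 and 18281622. It measured 23.8 and 19.9 CPM in siNC and 17.3 and 18.4 CPM in siPRR11. The groups did not overlap, but the log2 fold change of -0.29 (SE 0.11, 95% interval -0.52 to -0.06) had an edgeR adjusted p of 0.0849. It passed the threshold without siNC replicate 2, at -0.42 with an adjusted p of 0.00544.

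JUNB, an immediate early JUN protein that often restrains JUN, lies in a single exon on the plus strand of chromosome 19 between 12791496 and 12793315. It was 12.04 and 6.97 CPM in siNC and 12.7 and 7.37 CPM in siPRR11, and was thus high in replicate 1 and low in replicate 2 of both groups. Its log2 fold change was 0.07 (SE 0.25, 95% interval -0.48 to 0.61, edgeR adjusted p = 0.895). Of its exonic bases, 259 (14.2%) are shared with HOOK2 on the opposite strand. The strand setting of the counting is not given in the sources used here, so reads on those bases are uncertain. No other of the 10 genes shares exonic bases with another gene of the table.

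FOSL2, which encodes FRA2, has 7 exons on the plus strand of chromosome 2 between 28392448 and 28417312. It was 194.8 and 165.5 CPM in siNC and 172.7 and 152.3 CPM in siPRR11, and these ranges overlap. The log2 fold change was -0.15 (SE 0.09, 95% interval -0.35 to 0.05, edgeR adjusted p = 0.312). Without siNC replicate 2 it was -0.27, with an adjusted p of 0.0248.

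FOS, EGR1 and FOSB are the classical serum-response genes. In such genes the serum response factor binds CArG boxes, runs of the form CC, then 6 bases of A or T, then GG, next to sites for partner factors that carry the growth factor signal. The stretches that follow were taken from the GRCh38 genome upstream of the RefSeq start (RefSeq on GRCh38.p14) because their CArG boxes set these genes apart from most promoters by sequence. They are written on the plus strand, which is the sense strand of each gene, and capitals mark matches to a CArG box or to TGACGTCA.
FOS, chr14:75278488-75278588: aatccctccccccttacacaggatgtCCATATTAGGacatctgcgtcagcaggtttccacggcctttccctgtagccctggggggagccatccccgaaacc
EGR1 distal, chr5:138465049-138465139: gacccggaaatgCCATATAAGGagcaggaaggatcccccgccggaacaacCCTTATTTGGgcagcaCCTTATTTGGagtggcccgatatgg
EGR1 proximal, chr5:138465349-138465419: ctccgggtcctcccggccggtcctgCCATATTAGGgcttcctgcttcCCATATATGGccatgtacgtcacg
FOSB, chr19:45467656-45467746: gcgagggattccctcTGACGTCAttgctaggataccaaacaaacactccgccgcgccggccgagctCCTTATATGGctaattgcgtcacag

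Within the 500 bases before the start, EGR1 held 5 CArG boxes, FOS 1 and FOSB 1. Among the 27305 genes with such a window, 2.92% held a CArG box and 0.0696% held 2 or more. The FOS box spanned positions -314 to -305 and the FOSB box -274 to -265, counted from the first transcribed base. The EGR1 boxes began at -418, -380, -364, -105 and -83. The other 5 factors with a RefSeq entry (JUN, JUNB, JUND, ATF3 and FOSL2) had 0 matches to the CArG form in this window, and FOSL1 and MYC had no entry.

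Other motifs, searched on both strands, divided the factors differently. The cyclic AMP response element TGACGTCA, found at 2.4% of genes, occurred at FOSB (-325 to -318), at JUND (from -200) and at the downstream ATF3 start (from -497). The AP-1-like sequence TGACATCA, found at 3.96% of genes, occurred at JUN (-67 to -60, inside the longer JUN exon of the deposited annotation) and at the upstream ATF3 start (from -123). A TATAAA sequence, found at 24.8% of genes, lay at -33 in FOS, -30 in FOSB, -31 in JUNB and -230 before the downstream ATF3 start. FOSL2 held none of the motifs searched, which also included TGAGTCA (8.89% of genes) and the EGR site GCGTGGGCG (1.27%). For FOSL2 the RefSeq start used was 28392858, whereas the deposited gene begins at 28392448, so most of that window lies inside the annotated gene. These matches describe letters of the genome and were not tested for binding.

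**Figure D3:**
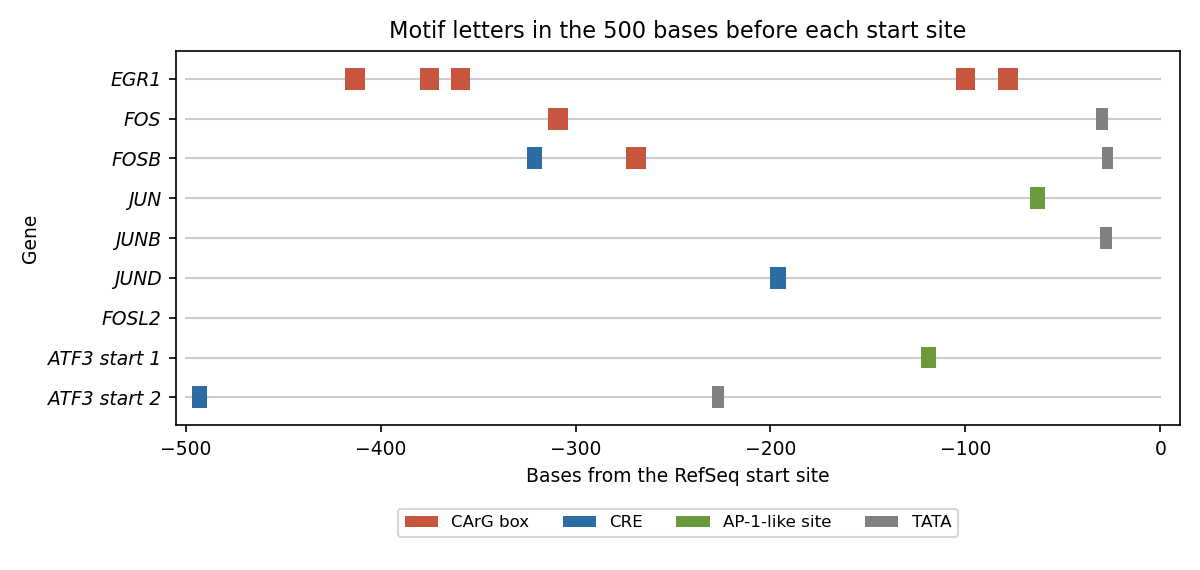
Motif matches in the 500 bases before the RefSeq start of each factor with an entry, plotted as position relative to the start. EGR1 carries 5 CArG boxes, and FOS and FOSB carry 1 each.

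Between the libraries of a group, FOS and EGR1 differed the most of the 10 factors. FOS, on the plus strand of chromosome 14 between 75278774 and 75282230 in 3 exons, was counted at 786 and 104 reads in the siNC libraries and at 790 and 148 reads in the siPRR11 libraries, or 9.62 and 1.79 CPM against 8.38 and 1.73 CPM. Replicate 1 therefore exceeded replicate 2 by 5.36 times in siNC and by 4.84 times in siPRR11, and the groups overlapped. The log2 fold change between groups was -0.20 with a standard error of 0.64 (95% interval -1.59 to 1.19, edgeR adjusted p = 0.872). On a linear scale the interval runs from 0.332 to 2.28 times the siNC level. This fit, with condition as its only term, therefore did not resolve a change of 2-fold in either direction. It counts the difference between replicates 1 and 2 as spread, although that difference recurs in both groups. Within replicate 1 the siPRR11 level was 0.871 times that of siNC, and within replicate 2 it was 0.965 times. With replicate number as a further term FOS was still not called, and the labels do not say what that number marks. Among the 14193 genes whose average log2 CPM was 1 or more, 0% had a larger standard error than FOS.

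EGR1, on the plus strand of chromosome 5 between 138465490 and 138469315 in 2 exons, behaved in the same way. It was 12.2 and 4.66 CPM in siNC and 10.8 and 4.35 CPM in siPRR11, with replicate 1 at 2.61 times replicate 2 in siNC and at 2.48 times in siPRR11. The groups overlapped, and the log2 fold change was -0.17 (SE 0.40, 95% interval -1.03 to 0.70, edgeR adjusted p = 0.821). Within replicate 1 the siPRR11 level of EGR1 was 0.886 times that of siNC, and within replicate 2 it was 0.934 times. FOSB, on the plus strand of chromosome 19 between 45467995 and 45475179 in 3 exons, was the scarcest factor, with 118 to 263 reads per library. Its levels of 2.75 and 2.04 CPM in siNC and 2.79 and 1.68 CPM in siPRR11 overlapped (log2 fold change -0.10, SE 0.24, 95% interval -0.64 to 0.43, edgeR adjusted p = 0.82).

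Leaving out a library turned the direction of these genes. FOS ranged from -1.75 on the log2 scale without siPRR11 replicate 1 (adjusted p = 4.02e-11) to 1.5 without siNC replicate 1 (adjusted p = 0.00493), and EGR1 from -0.96 (4.37e-05) to 0.70 (0.0372) for the same omissions. JUNB ranged from -0.37 without siPRR11 replicate 1 to 0.52 without siNC replicate 1 (adjusted p = 0.034), and FOSB from -0.51 to 0.21. Each such fit compared a single library with a pair that itself differed severalfold for FOS and EGR1.

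The difference between the libraries of a group was ranked over the 14193 genes of that expression range by the smaller of its 2 log2 values, 1 from each group. FOS was rank 1, with replicate 1 higher by 2.41 in siNC and by 2.26 in siPRR11 on the log2 scale, and EGR1 was rank 2, with 1.38 and 1.3. JUNB was rank 12 (0.787 and 0.779), JUN rank 57 (0.685 and 0.469), FOSB rank 77 (0.431 and 0.72) and FOSL2 rank 780 (0.234 and 0.181). These 6 of the 10 factors were higher in replicate 1 of both groups, as were 31.6% of all genes tested. FOSL1, JUND, ATF3 and MYC were not, and the 3 factors called lower were among them. The fit with condition as its only term counts a difference between libraries of a group as spread. With replicate number as a further term JUN was called lower, whereas FOS, EGR1, JUNB, FOSB and FOSL2 were still not called. JUND, without such a shared difference, was then called lower as well. The part of these differences in the calls was not tested. Only 7 genes of the 14193 were at least 2-fold higher in replicate 1 of both groups, and 1 gene was at least 2-fold lower.

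**Figure D4:**
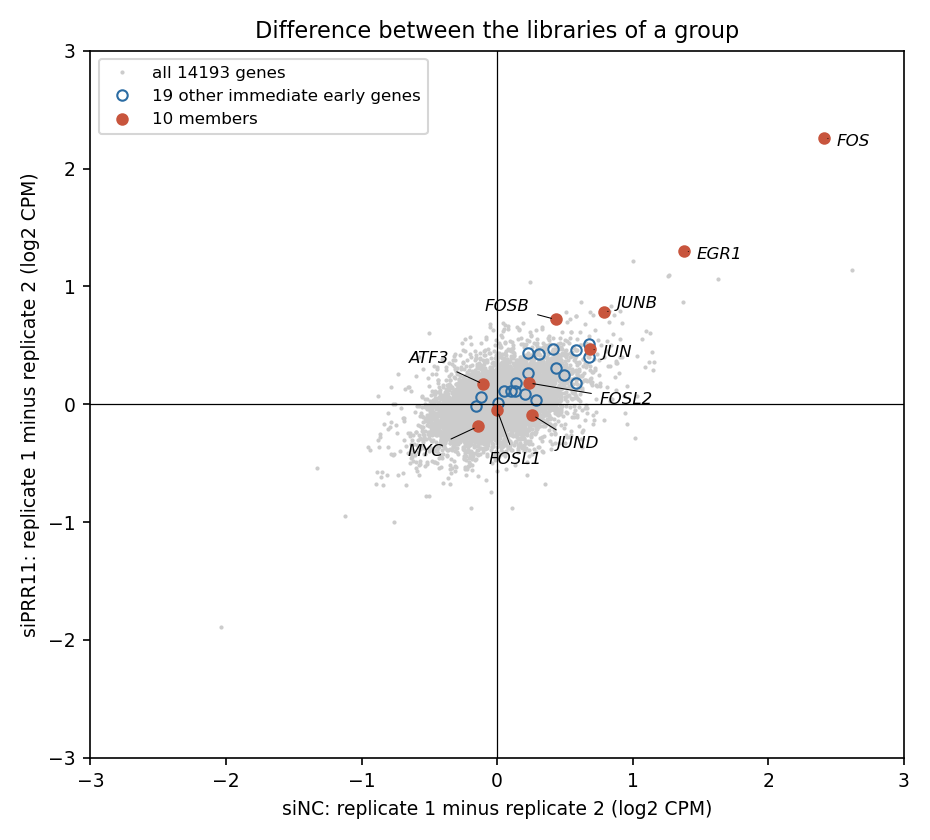
Log2 CPM of replicate 1 minus replicate 2 in siNC (horizontal axis) and in siPRR11 (vertical axis) for 14193 genes in grey, the 10 factors in red and 19 other immediate early genes as open blue circles. FOS (2.41 and 2.26) and EGR1 (1.38 and 1.3) lie far toward the upper right corner, and MYC, FOSL1, ATF3 and JUND lie near the origin.

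The immediate early genes outside the 10 factors shared this feature of the libraries in part. Of 18 such genes that encode no transcription factor, 16 were higher in replicate 1 of both groups, and of 8 immediate early transcription factors 2 were. Between siPRR11 and siNC they moved in both directions. Of the 18, 3 rose and 3 fell, with a median log2 fold change of -0.13. The number that fell was 8 without siNC replicate 2, 5 without siPRR11 replicate 1 and 2 without either of the other libraries, and the number that rose was 5 without siNC replicate 1 or siPRR11 replicate 2. BTG2, an antiproliferative gene, rose from 27.5 and 29.8 CPM to 53.2 and 50.9 CPM (log2 fold change 0.86, SE 0.08, edgeR adjusted p = 7.54e-05). IER5 rose by 0.47 on the log2 scale (adjusted p = 0.00493) and CTGF, a secreted matrix protein, by 0.41 (0.0108).

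ZFP36L1, whose protein speeds the decay of AU-rich mRNAs, fell from 177.5 and 171.1 CPM to 115.8 and 107.1 CPM (log2 fold change -0.65, SE 0.07, edgeR adjusted p = 0.000222). RHOB, a small GTPase, fell by 0.42 on the log2 scale (adjusted p = 0.00646). NFKBIZ, a nuclear cofactor of NF-κB, fell by 0.42 as well (0.0478), but DESeq2 gave it an adjusted p of 0.285, and it also missed the threshold without siNC replicate 1 (0.0708) or siPRR11 replicate 2 (0.303). Of the 8 immediate early transcription factors tested of 10 listed (EGR3 and EGR4 had too few reads), 1 fell and 0 rose. It was KLF6, a zinc finger factor, at 33.3 and 28.4 CPM in siNC and 19.5 and 16.2 CPM in siPRR11 (log2 fold change -0.79, SE 0.11, edgeR adjusted p = 0.000797). The number that fell was 2 without siNC replicate 1 or siPRR11 replicate 2, and 1 rose without siNC replicate 1.

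Among 21 bZIP genes whose products pair or compete with AP-1 (BATF had too few reads), 3 fell and 1 rose, with a median log2 fold change of -0.08. BATF3, a partner of JUN proteins, fell from 33.7 and 28.7 CPM to 23.4 and 20.1 CPM (log2 fold change -0.52, SE 0.11, edgeR adjusted p = 0.00679). NFE2L1, a regulator of proteasome genes, fell by 0.39 on the log2 scale (0.00421), and ATF6, a sensor of endoplasmic reticulum stress, by 0.35 (0.0188). ATF1, which binds cyclic AMP response elements, rose from 20.2 and 21.9 CPM to 25.8 and 28.9 CPM (0.38 on the log2 scale, adjusted p = 0.02). ATF6 missed the threshold without siPRR11 replicate 1 (0.0514) or siPRR11 replicate 2 (0.161), as did ATF1 without siPRR11 replicate 2 (0.225). Without siNC replicate 1, 7 of these genes fell, without siPRR11 replicate 1 or 2 only 2 did, and 4 rose without siNC replicate 2, 3 without siPRR11 replicate 1 and 0 without siPRR11 replicate 2.

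Of 17 genes of the signalling that induces these factors, from ERK and p38 kinases to SRF and its partners, 2 rose and 1 fell, and the median was -0.06. RPS6KA5, the kinase MSK1, which phosphorylates histone H3 and CREB at immediate early promoters, rose from 7.02 and 9.87 CPM to 11.7 and 14.4 CPM (log2 fold change 0.64, SE 0.16, edgeR adjusted p = 0.0167). RPS6KA1, the kinase RSK1, rose by 0.34 (0.0132). MAPK14, the p38α kinase, fell from 11.9 and 14.4 CPM to 8.57 and 8.77 CPM (log2 fold change -0.59, SE 0.12, adjusted p = 0.00549). Limma on log2 RPKM did not call MAPK14, and with either pseudocount it called 0 of the 17 genes lower and 1 higher. RPS6KA1 missed the threshold without siPRR11 replicate 1 (0.0749) or siPRR11 replicate 2 (0.101), and either omission left 1 gene that rose. Without siNC replicate 2, 4 of the genes rose and 2 fell, and without siNC replicate 1, 3 fell. Of the 2 EGR corepressors, NAB2 fell from 30.4 and 33.5 CPM to 22.3 and 23.7 CPM (-0.47 on the log2 scale, adjusted p = 0.00483), and NAB1 had a log2 fold change of 0.18 with an adjusted p of 0.177.

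In the network of MYC partners and antagonists, 3 of 12 genes tested fell and 0 rose, with a median log2 fold change of -0.08 (MYCN had too few reads). They were MXD4 (-0.47, SE 0.10, edgeR adjusted p = 0.00689) and MXI1 (-0.33, 0.0364), which encode MAX-binding repressors that oppose MYC, and ZBTB17 (-0.30, 0.0385), which encodes MIZ1, a zinc finger factor that MYC binds. MAX, the obligate partner of MYC, had a log2 fold change of -0.21 with an adjusted p of 0.0749. MXI1 missed the threshold without siNC replicate 1 (0.056) or siPRR11 replicate 2 (0.365), and ZBTB17 without siNC replicate 1 (0.124), siPRR11 replicate 1 (0.12) or siPRR11 replicate 2 (0.263), so that 1 gene of this network was called lower without siPRR11 replicate 2. Limma called 0 genes of the network.

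Of the 11 genes for turnover of MYC and JUN proteins, 1 fell, and it was DET1, part of a ubiquitin ligase for JUN, at 2.46 and 2.5 CPM in siNC and 1.51 and 1.59 CPM in siPRR11 (log2 fold change -0.68, SE 0.19, edgeR adjusted p = 0.0267). That call was lost without siPRR11 replicate 1 (0.141) or siPRR11 replicate 2 (0.0728). FBXW7, which marks MYC and JUN for degradation, was at 35.7 and 40.9 CPM in siNC and 37.6 and 38.0 CPM in siPRR11 (log2 fold change -0.02, SE 0.09, adjusted p = 0.928), and the groups overlapped. GSK3B, which phosphorylates MYC ahead of that step, had a log2 fold change of -0.06 (SE 0.10, edgeR adjusted p = 0.718).

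Of 20 established MYC target genes, mostly of ribosome production and nucleotide synthesis, 7 fell and 0 rose, with a median log2 fold change of -0.14. TFAP4, a transcription factor gene induced by MYC, fell the most, from 30.9 and 35.0 CPM to 19.0 and 22.9 CPM (log2 fold change -0.65, SE 0.11, edgeR adjusted p = 0.00191). RRP9 and PPAN, both needed for ribosomal RNA maturation, fell by 0.39 (0.00573) and by 0.37 (0.0119) on the log2 scale. Without siPRR11 replicate 1 only 2 of these genes fell, with RRP9 (0.0787) and PPAN (0.0738) among those lost, and without any other library 6 to 8 fell. Limma on log2 RPKM called 1 or 2 of them, depending on the pseudocount.

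Of the 15 AP-1 target genes tested, of 18 listed, 4 fell and 0 rose, and their median log2 fold change of -0.38 was the lowest of these lists. Alternative settings with all libraries called 2 to 9 of them lower and 0 to 2 higher. The largest change in the list was a rise of MMP1, from 0.294 and 0.224 CPM to 0.711 and 0.479 CPM. That rise missed the threshold (log2 fold change 1.18, SE 0.40, edgeR adjusted p = 0.0632). MT2A, a metallothionein, fell from 1160 and 894.9 CPM to 565.6 and 532.8 CPM (log2 fold change -0.90, SE 0.11, edgeR adjusted p = 0.000229). CD44, a hyaluronan receptor, fell from 222.9 and 234.4 CPM to 158.6 and 150 CPM (log2 fold change -0.57, SE 0.07, adjusted p = 0.000414). CCND1, which encodes cyclin D1, was 142.8 and 237.1 CPM in siNC and 90.9 and 138.1 CPM in siPRR11 (log2 fold change -0.73, SE 0.21, adjusted p = 0.0326). CCND1 differed between replicates in the opposite sense to FOS, and it missed the threshold with DESeq2 (0.295) and without siNC replicate 2 (log2 fold change -0.32, 0.0546). Without siNC replicate 2 or siPRR11 replicate 1, 6 of these targets fell. Each list stands beside the same shares over all genes tested, 9.14% lower and 7.61% higher. The lists, that of MYC targets among them, were chosen with earlier results of these data known.

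**Figure D5:**
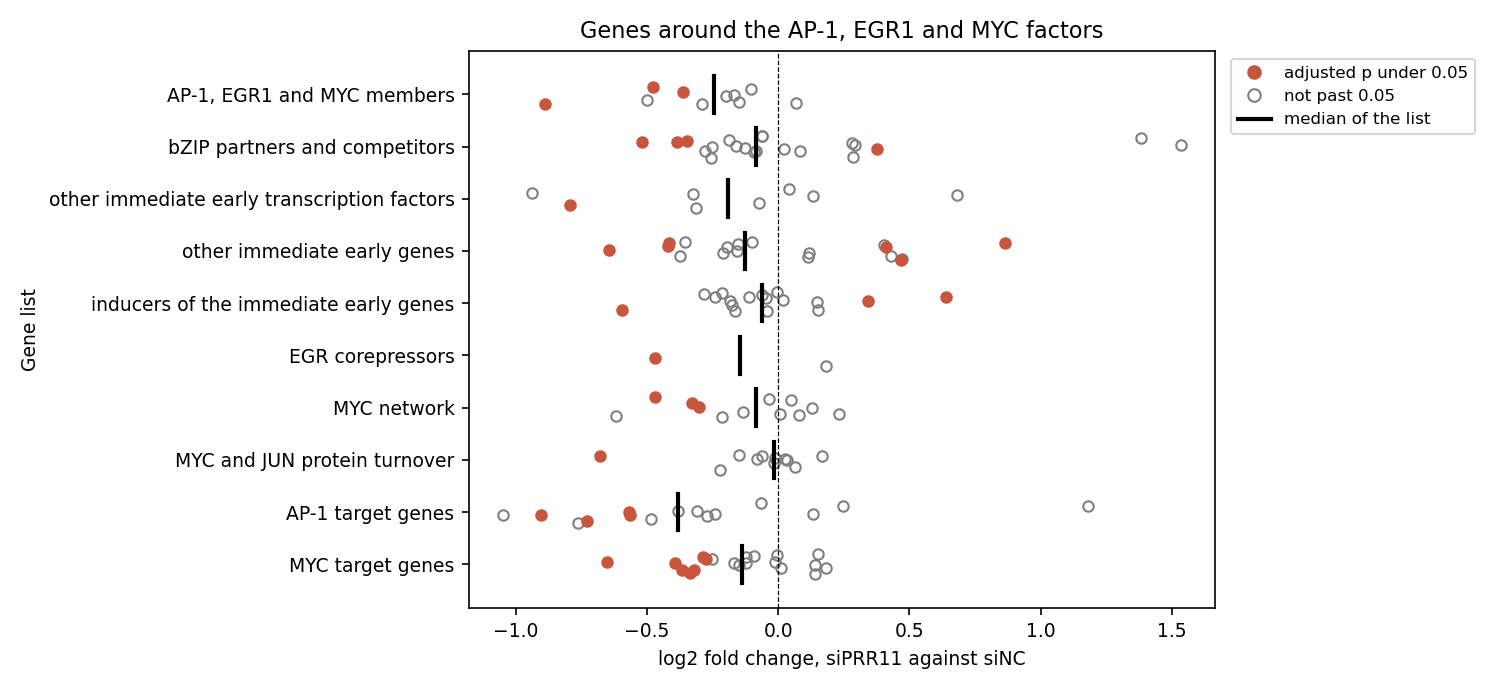
Log2 fold change in siPRR11 against siNC of each gene tested in the 10 factors and in 9 lists of related genes; red points have an adjusted p under 0.05 and the black line is the median of a list. The medians lie at -0.25 for the 10 factors, -0.38 for AP-1 targets and -0.14 for MYC targets.

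The 3 genes whose levels over the 4 libraries followed MYC most closely, by Euclidean distance between log2 CPM values centred on each gene's own mean, were KLF12 (distance 0.0566, log2 fold change -0.84), TACC2 (0.0974, -0.92) and JPH1 (0.0986, -0.85). They were drawn from the 14193 genes of that expression range.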

How the data were processed

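Stranded mRNA libraries of ACHN cells were sequenced on a DNBSEQ-T7 instrument. The authors trimmed the reads (Trimmomatic 0.36 per the processing notes), mapped them on GRCh38 by STAR and summarised them per gene by featureCounts of Subread 1.5.1, and they deposited the raw counts per gene and RPKM values of the same genes. The annotation release, the strand setting and the time after transfection are not given in the sources used here. Groups came from the sample titles. Counts of 59003839 to 92612749 reads per library were scaled by TMM (edgeR 4.0.16 in R 4.3.3), genes were kept by filterByExpr, and the groups were tested by the quasi-likelihood method of edgeR with condition as the only term. The deposited RPKM values served only for levels between genes and for limma 3.58.1 on log2(RPKM + 1) or log2(RPKM + 0.1), whose fold changes are smaller for low genes. DESeq2 1.42.0, RLE scaling, other filters and each library left out were alternatives. The script was tested on simulated counts. Intervals are at 95%, and those of a fold use the test's t quantile. The members and gene lists were chosen with earlier results of these data known. From each list up to 3 genes per direction were named, those with the largest change among genes past 0.05 without overlap between groups, as well as PRR11, FBXW7, GSK3B and the 3 genes nearest to the member that changed most. Genes named beyond this rule (MAX, NAB1, MMP1 and marker genes in the report, and the genes under other observations) were chosen after their values were seen. Motifs were searched in both strands of the 500 bases before RefSeq starts. Results for 1 further cell type marker are not reported here.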

Additional observations from a re-analysis of the deposited data

How the results depend on the processing

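The calls of MYC and FOSL1 and their direction were kept under every alternative run. Of all genes, 3622 were called, against 1775 and 1878 by limma with a pseudocount of 1 and 0.1, and between 2172 (without siPRR11 replicate 1) and 4590 (without siNC replicate 1) with a library left out, where siPRR11 replicate 2 left out gave 2393. Among the calls, 45.4% were higher in siPRR11, against 61.5% and 61.3% by limma. Of the 10 factors, 3 were called, and between 3 and 8 with a library left out. Of 124 list genes, 30 were called, against 10 and 13 by limma and 27 to 43 with a library left out. Those higher were 6, against 11 without siNC replicate 1 and 12 without siNC replicate 2. The cause of these shifts was not tested. The replicate numbers are shared by the groups in the labels, which do not say what they mark. Differences between the libraries of a group correlated between groups (r = 0.482 across 14193 genes, which are not independent replicates). With the replicate block 6988 genes, 5 factors (ATF3, FOSL1, JUN, JUND and MYC) and 64 list genes were called.

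Directions turned, with a library left out, for FOS (-1.75 to 1.5 on the log2 scale), EGR1 (-0.96 to 0.70), JUNB (-0.37 to 0.52), FOSB (-0.51 to 0.21), FBXW7 (-0.12 to 0.079) and GSK3B (-0.20 to 0.077), and for FBXW7 also with limma (0.025 and 0.032). With 2 libraries a group and condition as the only term, the 95% interval of FOS spanned -1.59 to 1.19 and that of EGR1 -1.03 to 0.70.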

Other observations

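The other genes that were at least 2-fold higher in replicate 1 than in replicate 2 of both groups, besides FOS and EGR1, were TXNIP (6.15-fold in siNC and 2.2-fold in siPRR11), ARRDC4 (3.13-fold and 2.09-fold), SAA1 (2.46-fold and 2.15-fold), IL6 (2.41-fold and 2.14-fold) and CXCL2 (2.01-fold and 2.34-fold). TXNIP and ARRDC4 encode arrestin-domain proteins that respond to glucose, and SAA1, IL6 and CXCL2 are genes of the acute inflammatory response. CCL2, a chemokine gene, followed at 2.59-fold and 1.83-fold. These genes were named after their values were seen, and what the libraries numbered 1 have in common was not tested.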
